A study of Oryza sativa with 6 samples.

Results

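*OsRZFP34* (*Os01g0719100*) was examined in leaf RNA as 1 gene of the 925 listed in the deposited expression table, and it was chosen by its identifier with its difference between the groups already known. The table describes it as similar to RING finger and CHY zinc finger domain-containing protein 1, and the identifier places it on chromosome 1 of rice. Its level was 163 ± 2.36 FPKM (SD, n = 3) in the wild type and 788 ± 7.81 FPKM (SD, n = 3) in the *Dap1* mutant, where FPKM is the fragment count corrected for transcript length and for the depth of the library. Because the gene was picked for this contrast, its own values are a description without a test.

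The wild type (WT) was the *japonica* rice variety Zhonghua11 (ZH11). *Dap1* is a dwarf line from a T-DNA population of that variety, with an insertion upstream of the homeobox gene *OsWUS*, and the mutant plants of the study were heterozygous for it because no homozygous plant was found. All plants grew in the field, leaves were taken at the booting stage, and each group had 3 biological replicates, so that the *Dap1* group stands for a single insertion line. The plants' age, the day and the hour of sampling are not given in the sources used here, and since *Dap1* is described as heading later, the mutation and the conditions of sampling cannot be told apart in any difference given here.

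RING proteins are E3 ubiquitin ligases or parts of them. In this pathway an E1 enzyme activates ubiquitin, an E2 enzyme carries it, and an E3 ligase brings the E2 to a substrate, which is then often degraded by the proteasome. *OsRZFP34* carries a CHY zinc finger beside its RING domain, an arrangement shared with the human p53 ligase RCHY1. In rice, *OsRZFP34* is known as a gene induced by high temperature and abscisic acid whose overexpression widens stomata, the leaf pores through which water vapour leaves and the leaf is cooled. Its relative in *Arabidopsis*, *CHYR1*, acts in abscisic acid and drought responses of guard cells.

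The table holds only genes that had passed the thresholds of the study, so 98.6% of the 925 genes were also called here (edgeR's quasi-likelihood test, Benjamini-Hochberg adjusted p under 0.05 and absolute log2 fold change over 1), with 56.9% called higher and 41.7% called lower in *Dap1*. These shares were 37% and 42.5% (79.5% in all) with TMM factors, 27.1% and 42.5% (69.6% in all) with DESeq2 size factors, 29.8% and 12.8% (42.6% in all) with limma on log2(FPKM + 1), and 55.2% and 39.1% (94.4% in all) with limma on log2(FPKM + 0.1). The counts on the listed genes were between 244181 and 314019 in the WT libraries and between 601642 and 666483 in the *Dap1* libraries. Totals over all genes entered only through the depth correction of FPKM. The libraries were scaled by the ratio of count to FPKM, which gave relative sizes from 0.862 to 1.11. This scaling follows that depth and makes no further adjustment between the groups. TMM and DESeq2 size factors assume that most genes are unchanged, which does not hold over genes listed for a difference. As a check of the labels, the WT libraries held 0, 0 and 0 counts of *OsWUS* (*Os04g0663600*, named *WOX1* in the table, on chromosome 4 by its identifier), against 77, 100 and 105 in *Dap1*. Leaf identity could not be checked on the 10 listed photosynthesis genes, because they too are listed for a difference between the groups. Of these, 7 were called higher, 2 lower and 1 was not called. Their summed level was between 866 and 883 FPKM in WT and between 2483 and 2512 FPKM in *Dap1*. Most of it came from the chloroplast ferritin genes *OsFER1* and *FER2*. In whole leaves, a larger number of cells of a type and more RNA per cell cannot be told apart.

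*OsRZFP34* was counted 6315, 4867 and 5684 times in the WT libraries. In the *Dap1* libraries it was counted 26591, 28143 and 29399 times. The lowest *Dap1* library thus lay far above the highest WT library, and the groups did not overlap, as was the case for 99.0% of all listed genes. After scaling to library size the counts were 5699, 5644 and 5640 in WT and 27940, 27246 and 27832 in *Dap1*. The FPKM values were 165.15, 164.01 and 160.61 in WT and 794.07, 779.07 and 790.37 in *Dap1*, a gap of 614 FPKM between the highest WT and the lowest *Dap1* library. Over the 9 pairs of a *Dap1* and a WT library the ratio of FPKM ran from 4.72 to 4.94. The fitted log2 fold change was 2.29 with a standard error (SE) of 0.022, which is 4.89-fold.

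**Figure D1:**
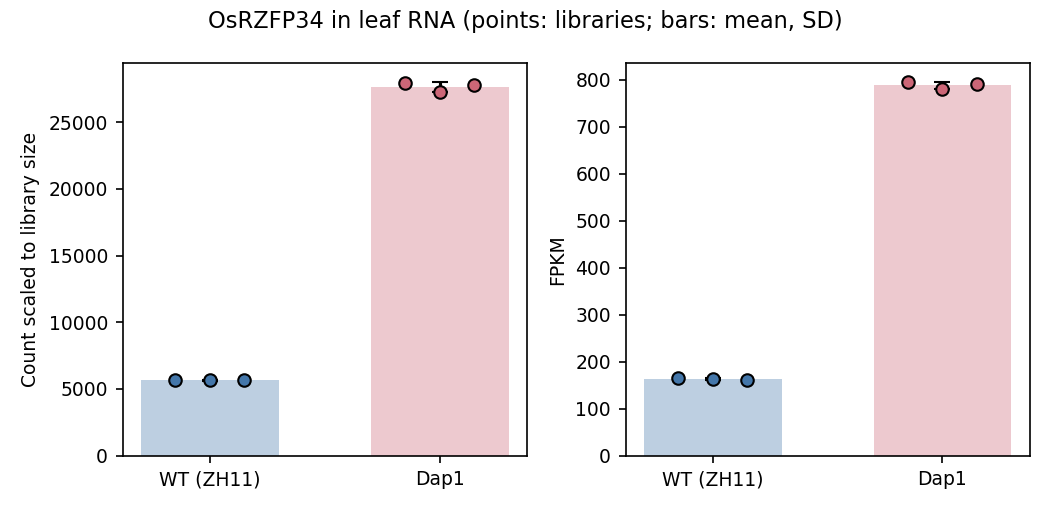
Level of *OsRZFP34* in the 3 WT and 3 *Dap1* leaf libraries as the count scaled to library size (left axis from 0) and as FPKM (right axis from 0); points are libraries, bars are group means and error bars are the SD. The WT libraries lie between 160.61 and 165.15 FPKM and the *Dap1* libraries between 779.07 and 794.07 FPKM.

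The replicates lay close together in both groups. The coefficient of variation of FPKM was 1.45% in WT, where counting error alone would give 1.33%, and 0.992% in *Dap1*, where it would give 0.597%. For the scaled count the order was reversed, with 0.579% in WT and 1.35% in *Dap1*. Among the 47 genes with a mean of at least 1000 counts in WT, 14 had a smaller coefficient of variation than *OsRZFP34*, and the median was 1.91%. Among the 88 such genes in *Dap1*, 7 had a smaller one, and the median was 2.09%. *OsRZFP34* had a mean of 5622 counts in WT and 28044 in *Dap1*. Counting error is larger for genes with fewer counts, so its place in this order depends in part on its depth. The ratio of scaled count to FPKM, which depends on the transcript length used, stayed between 34.4 and 35.2 over the 6 libraries, a range of 2.33%. Because the library sizes were themselves taken from count divided by FPKM, this ratio is nearly fixed in advance. It is therefore no separate check of the difference between the groups.

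*OsRZFP34* was among the most abundant of the listed transcripts in both groups. It took rank 16 by FPKM in every WT library and rank 7 in every *Dap1* library. Its share of the counts on the listed genes was 2.01%, 1.99% and 1.99% in WT against 4.42%, 4.32% and 4.41% in *Dap1*. In WT its level lay between that of the tonoplast water channel gene *OsTIP1* (*Os03g0146100*, 179 ± 3.09 FPKM, SD, n = 3) and that of *OsSWEET2b*, of a family of sugar transporters (132 ± 1.46 FPKM, SD, n = 3). Next to these came *OsVPE2*, a vacuolar processing enzyme (211 ± 5.32 FPKM), and *Os07g0178700*, similar to an early light-inducible protein (130 ± 6.87 FPKM). None of these 4 neighbours overlapped *OsRZFP34* in its WT libraries. In *Dap1* the J-domain co-chaperone gene *OsDjA5* (814 ± 10.5 FPKM, SD, n = 3) stood directly above it, and *OsFER1* (971 ± 12.0 FPKM) above that. Directly below were a second gene that the table names *OsTIP1* (*Os01g0975900*, 780 ± 7.30 FPKM) and the dehydroascorbate reductase gene *OsDHAR1* (660 ± 11.5 FPKM). Of these 4, only *Os01g0975900* overlapped *OsRZFP34* in its *Dap1* libraries, with values from 775.87 to 788.56 FPKM, so the order of these 2 genes was within their spread.

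*OsRZFP34* ranked higher by the amount of transcript added than by its fold. By mean FPKM it rose by 625, the fifth largest rise in the table after *Os03g0100200*, described as of the pterin dehydratase family (1822 FPKM), the iron storage gene *FER2* (857 FPKM), the inositol phosphate synthase gene *OsINO1* (676 FPKM) and *Os10g0419500*, similar to SIPL (640 FPKM). This rise was 3.76% of the summed FPKM rise of all genes that were higher in *Dap1*. By log2 fold change it was at rank 197 of the 526 genes called higher, whose median was 1.85. Among the 22 genes with a WT mean of at least 100 FPKM the log2 fold change of *OsRZFP34* was at rank 2, behind *Os03g0100200* with 2.88 (SE 0.022). Of these 22 genes 13 were called higher and 9 lower, with a median log2 fold change of 1.17. This was near the 56.9% higher, 41.7% lower and median of 1.15 over all listed genes. These ranks come from the contrast by which the gene was chosen and are given as a description.

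**Figure D2:**
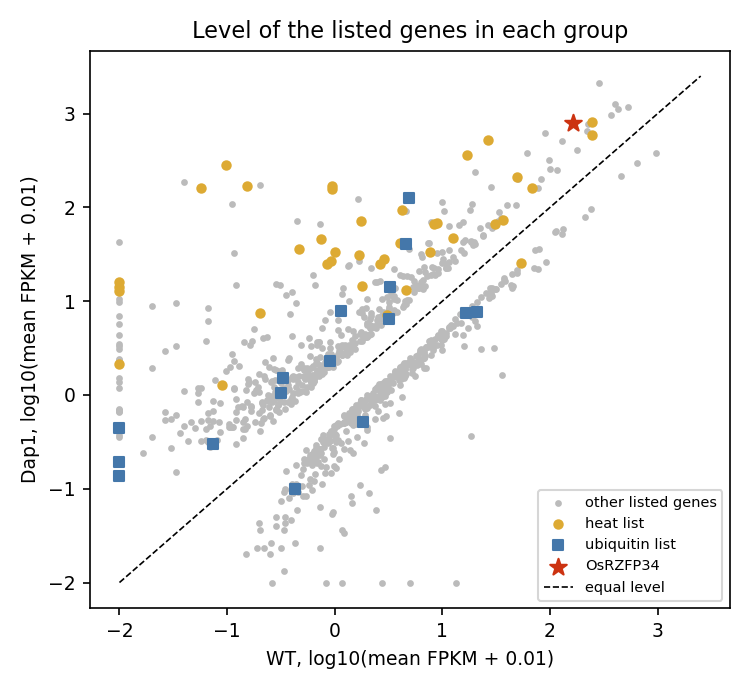
Mean FPKM in *Dap1* (vertical) against WT (horizontal) for the 925 listed genes, each as log10 after adding 0.01, with the dashed line marking equal levels. *OsRZFP34* (star, 163 FPKM in WT and 788 in *Dap1*) lies above every other gene of the ubiquitin list (squares) in both groups, and the band without points around the dashed line reflects that only called genes are listed.

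The ubiquitin list was every listed gene whose annotation mentions ubiquitin, 16 genes besides *OsRZFP34*. Of these, 12 were called higher and 4 lower in *Dap1* and none was left uncalled, against the 56.9% and 41.7% of all listed genes. Each of the 16 had groups that lay apart in FPKM, as did 99% of all listed genes. The median log2 fold change was 2.09, or 1.59 with 3 genes that had no count in WT set to their lower bound, against 1.15 over all listed genes. All 16 kept their direction when the libraries were scaled by TMM or by DESeq2 size factors over the listed genes. With these factors 10 and 8 of the 16 were called higher, against 37% and 27.1% of all listed genes. With limma on log2(FPKM + 1), 4 were called higher and 2 lower, near the 29.8% and 12.8% of all listed genes. The list held 5 genes with a mean FPKM under 1 in both groups. *OsRZFP34* alone made up between 73.0% and 74.2% of the summed FPKM of the 17 genes in the WT libraries and between 77.8% and 78.5% in the *Dap1* libraries. The other 16 genes summed to between 57.5 and 59.4 FPKM in WT and between 216 and 222 FPKM in *Dap1*.

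Among the E2 enzymes, which hand ubiquitin to the ligases, *OsUBC17* rose and *LTN1* fell. *OsUBC17* was counted 165, 109 and 117 times in WT against 512, 587 and 611 times in *Dap1*, with a log2 fold change of 2.10 (SE 0.096). *LTN1*, which limits phosphate uptake and accumulation, was counted 1638, 1328 and 1665 times in WT against 524, 614 and 585 times in *Dap1*, with a log2 fold change of -1.46 (SE 0.054). In neither gene did the groups overlap, as was the case for 99% of all listed genes.

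Among the E3 genes other than *OsRZFP34*, the U-box gene *OsPUB63* showed the largest rise. It was counted 137, 98 and 126 times in WT against 2977, 3265 and 3255 times in *Dap1*, with a log2 fold change of 4.69 (SE 0.055), and at 127 ± 1.63 FPKM (SD, n = 3) in *Dap1* it was the gene of the list nearest to *OsRZFP34* in level. The U-box gene *OsPUB45* was close to the threshold, counted 111, 75 and 83 times in WT against 152, 243 and 159 times in *Dap1*, with a log2 fold change of 1.01 (SE 0.17). It was inside the threshold of 1 with TMM factors (0.56), DESeq2 size factors (0.16) and limma on log2(FPKM + 1) (0.81), as well as without *Dap1* replicate 2 (0.78), WT replicate 3 (0.95) or WT replicate 2 (0.99), with the replicate block (0.99) and with limma on log2(FPKM + 0.1) (0.97). The cullin gene *OsCUL1-3*, a scaffold of multi-subunit ligases, was counted only 4, 0 and 6 times in WT against 12, 7 and 25 times in *Dap1*, and its log2 fold change of 2.07 (SE 0.64) was no longer called without *Dap1* replicate 3 (1.49), with DESeq2 size factors (1.24) or with limma on log2(FPKM + 1) (0.28). The F-box gene *OsFbox157*, of the family that selects substrates for cullin ligases, fell with a log2 fold change of -1.84 (SE 0.29). *BARD1*, whose human counterpart pairs with the BRCA1 ligase in DNA repair, fell with a log2 fold change of -2.17 (SE 0.56) from 25, 13 and 12 counts to 1, 8 and 2.

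Of the remaining genes of the list, *D53* encodes a repressor of strigolactone signalling that is itself a substrate of ubiquitination. It fell from 16.5 ± 0.620 FPKM (SD, n = 3) to 7.44 ± 0.0872 FPKM (SD, n = 3), with a log2 fold change of -1.15 (SE 0.057). The otubain-domain gene *Os08g0506000*, of a family of enzymes that remove ubiquitin, rose by a log2 fold change of 2.80 (SE 0.16), and the CS-domain gene *Os01g0757500* rose by 3.16 (SE 0.096). *Os08g0387200* rose by 2.21 (SE 0.29). No fragment was counted in WT on *Os11g0219400*, *OsWD40-136* and *OsM2*, which had 7, 18 and 28, then 10, 8 and 6, then 4, 13 and 8 counts in the *Dap1* libraries. Set against a floor of 3 counts per WT library, they were at least 5.60-fold, 2.61-fold and 2.66-fold higher, bounds that cover counting error only.

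The RING list was every listed gene described as a RING finger, RING-H2, RING/FYVE/PHD or C6HC protein, 6 genes besides *OsRZFP34*, of which 2 are also in the ubiquitin list. Of the 6, 4 were called higher and 2 lower, with a median log2 fold change of 1.25. For so short a list this lies near the 56.9% higher, 41.7% lower and median of 1.15 over all listed genes. None of them reached the log2 fold change of *OsRZFP34*, which made up between 91.1% and 91.7% of the summed FPKM of the 7 genes in WT and between 96.4% and 96.6% in *Dap1*. The next most abundant was *OsRING-1*, with 9.05 ± 0.210 FPKM (SD, n = 3) in WT and 19.8 ± 0.707 FPKM (SD, n = 3) in *Dap1*, a log2 fold change of 1.13 (SE 0.072). *OsRFPH2-7* rose by 2.07 (SE 0.25), *Os09g0283600* by 1.76 (SE 0.39) and *Os03g0324900* by 1.36 (SE 0.25). *Os05g0452800* fell, with a log2 fold change of -1.53 (SE 0.29). *Os02g0686100* was at -1.07 (SE 0.26) from 79, 37 and 49 counts in WT against 23, 27 and 29 in *Dap1*. It was inside the threshold without WT replicate 1 (-0.82) and with limma on log2(FPKM + 1) (-0.68) or log2(FPKM + 0.1) (-0.98). The directions of the 6 genes were the same under both scalings over the listed genes, and 2 and 1 of them were then called higher. The share of all listed genes called higher was also lower there, 37% with TMM factors and 27.1% with DESeq2 size factors.

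**Figure D3:**
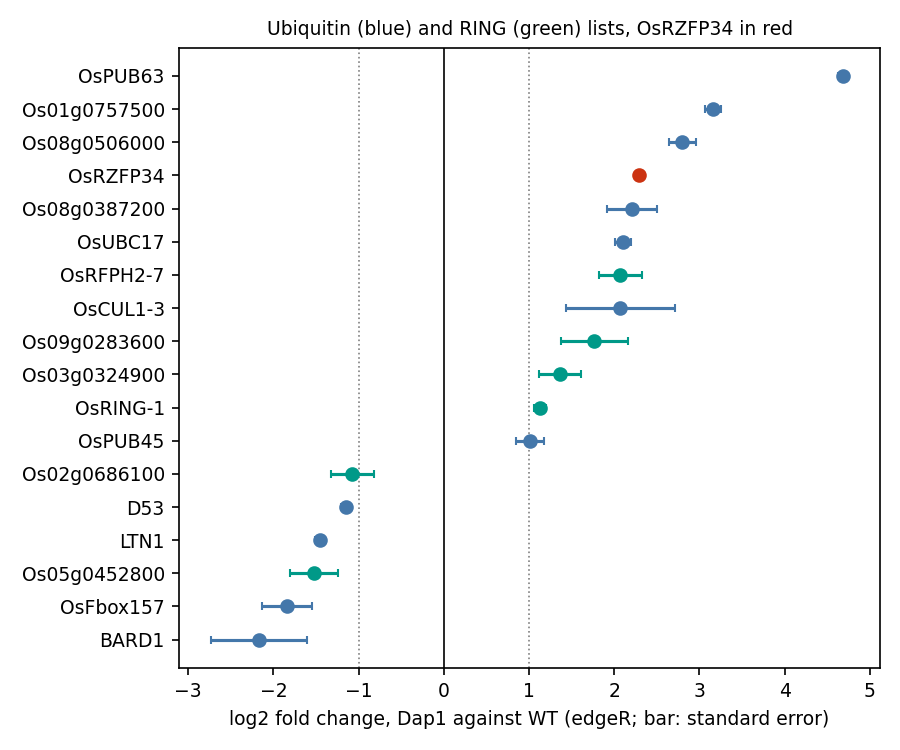
Log2 fold change between *Dap1* and WT from edgeR, with its standard error, for the ubiquitin list (blue), the RING list (green, 2 of its genes also in the ubiquitin list) and *OsRZFP34* (red, 2.29); dotted lines mark the threshold of 1 in each direction. The 3 genes without a count in WT are left out because only a bound can be given, and the standard error is larger for genes with few counts, as for *OsCUL1-3* (0.64) against *OsRZFP34* (0.022).

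*OsRZFP34* does not carry the heat term in the table, although it is known as a gene induced by heat. The heat list was every listed gene with a gene ontology process containing the words response to heat, 38 genes. Of these, 36 were called higher and 1 lower, and 1 was not called, where 56.9% of all listed genes were called higher and 41.7% lower. The list's median log2 fold change was 4.26, or 3.98 with 7 genes at their bound, beside 1.15 over all listed genes, and 27 of the 38 had a larger log2 fold change than *OsRZFP34*. By level the order was different, since only *OsDjA5* had a higher mean FPKM than *OsRZFP34* in *Dap1*. *OsDjA5* rose from 247 ± 3.43 FPKM (SD, n = 3) in WT, a log2 fold change of 1.72 (SE 0.022) that was inside the threshold with DESeq2 size factors (0.87). The other abundant heat genes in *Dap1* were the chloroplast chaperone gene *OsHsp70CP1* (590 ± 8.53 FPKM), the Hsp70 genes *OsctHSP70-1* (520 ± 1.54 FPKM) and *OsMed37_1* (365 ± 5.31 FPKM) and the small heat shock gene *Oshsp16.9A* (282 ± 5.31 FPKM), each SD with n = 3. *OsHsp70CP1* had 248 ± 6.43 FPKM in WT, above *OsRZFP34*, whereas *OsctHSP70-1* and *OsMed37_1* had 26.7 ± 1.83 and 17.1 ± 1.05 FPKM. The *Oshsp16.9A* reads may be split with its near-identical family members. The listed member that fell was *CATA1*, a catalase that removes hydrogen peroxide, with a log2 fold change of -1.13 (SE 0.048). Under both scalings over the listed genes 37 of the 38 genes stayed above 0. With TMM factors 32 were called higher and with DESeq2 size factors 30, against 37% and 27.1% of all listed genes. *OsHsp70CP1* was inside the threshold under both scalings (0.80 and 0.40).

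The abscisic acid list was every listed gene whose description or process term mentions abscisic acid, stomata or guard cells, 16 genes without *OsRZFP34*. It was split in direction, with 7 genes called higher, 8 called lower and 1 not called, and a median log2 fold change of -1.06. Over all listed genes 56.9% were called higher and 41.7% lower, with a median of 1.15. Only 2 of the 16 had a larger log2 fold change than *OsRZFP34*, and none had a higher level in either group. On the supply side, *OsNCED1*, whose enzyme family makes the first committed step of abscisic acid synthesis, was counted 3082, 2388 and 2796 times in WT against 775, 988 and 879 times in *Dap1*, a log2 fold change of -1.68 (SE 0.047). *OsABA8OX2*, of the family of hydroxylases that break the hormone down, was counted 349, 272 and 332 times in WT against 758, 836 and 761 times in *Dap1*, a log2 fold change of 1.28 (SE 0.070). The synthesis gene was thus lower and the breakdown gene higher in all 3 *Dap1* libraries, although the rise of *OsABA8OX2* was 0.82 with TMM factors and 0.42 with DESeq2 size factors, inside the threshold. The transporter gene *OsABCG27* had a log2 fold change of -1.12 (SE 0.15), and -0.998 without *Dap1* replicate 2 and -0.90 with limma on log2(FPKM + 1).

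In the signalling part, the protein kinase gene *SAPK9* belongs to the SnRK2 family that abscisic acid activates. It was counted 91, 64 and 81 times in WT against 37, 48 and 35 times in *Dap1*, and its log2 fold change of -0.9997 (SE 0.20) lay just inside the threshold. It was beyond it at -1.45 with TMM factors, at -1.85 with DESeq2 size factors, at -1.04 without WT replicate 2 and at -1.14 without *Dap1* replicate 2. The DESeq2 fit (-1.001) and the replicate block (-1.004) also put it just beyond. *BZIP46*, a positive regulator of the signal, fell (-1.15, SE 0.28). *OsMYB86-L2*, similar to a Myb-related protein and annotated with stomatal movement, fell from 23, 16 and 15 counts to 8, 5 and 6, a log2 fold change of -1.51 (SE 0.43). Among genes with the response term, *Os06g0592500*, similar to an ethylene-responsive transcriptional coactivator, rose from 2.63 ± 0.325 to 24.6 ± 0.740 FPKM (SD, n = 3), a log2 fold change of 3.22 (SE 0.14). *CATA1* is in this list too. The pathogenesis-related genes *OsPR10a* (-1.30, SE 0.082) and *RPR10b* (-1.63, SE 0.35) fell. The oxygenase gene *PIOX* was at -1.17 (SE 0.38) with overlapping groups. It was inside the threshold without *Dap1* replicate 3 (-0.85), *Dap1* replicate 2 (-0.86) or WT replicate 2 (-0.99), and with limma on log2(FPKM + 1) (-0.46). The remaining genes of the list all rose and are named after their values were seen. *RAB21*, a dehydrin gene induced by abscisic acid, was counted 0, 1 and 0 times in WT against 152, 145 and 160 times in *Dap1*. The log2 fold changes were 1.80 for *EFA27* (SE 0.39), 1.47 for the cuticular wax gene *OsGL1-2* (SE 0.21), 1.36 for *Os03g0626500* (SE 0.18) and 1.18 for the bZIP transcription factor gene *BZIP12* (SE 0.14). The directions of all 16 genes were the same under both scalings over the listed genes. With TMM and DESeq2 size factors 4 and 2 genes were called higher, and 9 were called lower in each. Of all listed genes, 37% and 27.1% were called higher with these scalings, and 42.5% lower in each.

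The genes with the pattern most like *OsRZFP34* were taken from the distance over the 6 libraries in log2(FPKM + 0.1), each gene relative to its own WT mean, among 430 other genes with a mean of at least 50 counts. The nearest were *OsTRX*, similar to the chloroplast redox protein thioredoxin M (distance 0.22), *OsCBSX5*, with a cystathionine beta-synthase domain (0.23), *OsCPR3*, similar to the reductase that passes electrons to cytochrome P450 enzymes (0.23), *OsAGP27*, described as a hypothetical conserved gene (0.23), and *OsISC24*, similar to a mitochondrial Hsp70 and the only gene among these that is in the heat list (0.28). *OsTRX* had 15.25, 16.27 and 15.54 FPKM in WT and 70.78, 72.82 and 68.02 in *Dap1*. *OsCPR3* had 18.79, 17.05 and 18.22 FPKM in WT and 93.36, 95.59 and 94.03 in *Dap1*. Their log2 fold changes ran from 2.14 for *OsISC24* (SE 0.055) to 2.38 for *OsCPR3* (SE 0.038), around the 2.29 of *OsRZFP34*. Because the distance takes the *Dap1* libraries relative to the WT mean, a similar fold change follows from how these genes were chosen. Their levels were lower by far in both groups. The choice among close candidates was not firm. With log2(FPKM + 1), which compresses changes at low levels, only 1 of these 5 genes was again among the nearest, and 2 were when WT replicate 1 was left out.

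The next listed identifiers on chromosome 1 were looked up after these values were seen. *Os01g0719125*, a hypothetical protein gene whose number directly follows that of *OsRZFP34* in the table, was counted 71, 69 and 103 times in WT against 353, 409 and 398 times in *Dap1*. Its level was 1.67 ± 0.387 FPKM (SD, n = 3) in WT and 7.75 ± 0.261 FPKM (SD, n = 3) in *Dap1*, and its log2 fold change of 2.22 (SE 0.13) was within 1 standard error of that of *OsRZFP34*, at a far lower level. Whether the 2 genes overlap, and whether reads were counted by strand, is not given in the sources used here, so reads of *OsRZFP34* assigned to *Os01g0719125* cannot be told apart from its own. *Os01g0719400*, a CASC3/Barentsz-domain gene, was at 2.05 (SE 0.30) from 25, 6 and 15 counts in WT against 47, 80 and 68 in *Dap1*. On the other side, *Os01g0717400* fell (-1.87, SE 0.096) and *Os01g0716400*, of the violaxanthin de-epoxidase family, rose by 1.05 (SE 0.049).

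**Figure D4:**
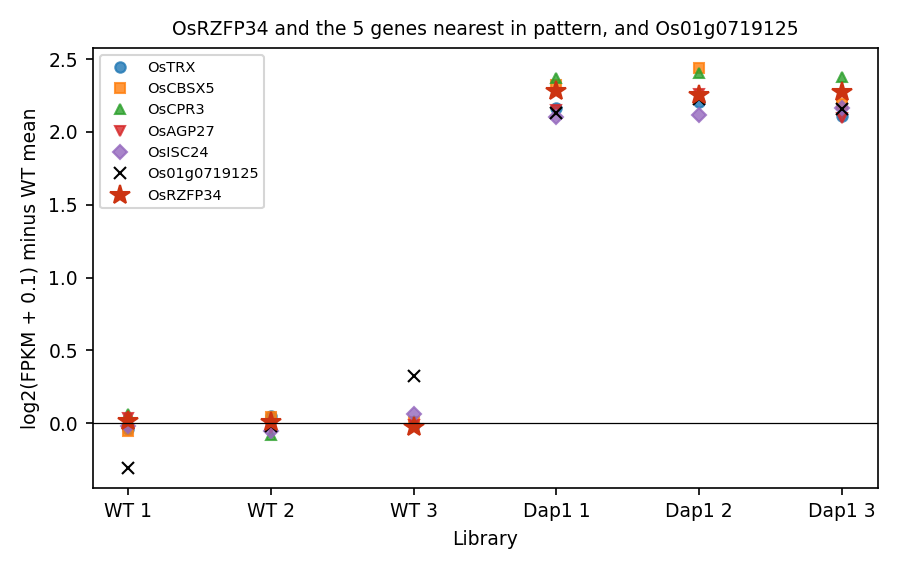
Log2(FPKM + 0.1) minus the gene's WT mean in each of the 6 libraries for *OsRZFP34* (star), its 5 nearest genes by pattern and *Os01g0719125* (cross). All 7 genes sit near 0 in WT and at similar heights in *Dap1*, and *Os01g0719125*, with 1.67 FPKM in WT, scatters most among its WT libraries. Each gene is centred on its WT mean, and the 5 nearest genes were chosen for this likeness.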

How the data were processed

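Leaf RNA of 3 WT (ZH11) and 3 *Dap1* samples was sequenced, with groups and replicate numbers taken from the sample titles. The authors trimmed reads (Fastp), discarded those from rRNA (Bowtie 2), aligned the others to Nipponbare (HISAT 2), assembled transcripts (StringTie) and estimated levels (RSEM). Versions, build and strand setting are not given in the sources used here. The deposited table holds raw counts and FPKM per library for the 925 genes the authors called. It also holds the authors' mean FPKM, their log2 fold change, p-value and FDR, which were not used. No identifier matched the RefSeq gene table (0 matched), so no coordinates or sequences are given.

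Relative library sizes came from count divided by FPKM, taken relative to each gene's mean, as the median of 258 genes that reached 2 FPKM in all libraries. All 925 genes were fitted with edgeR 4.0.16 in R 4.3.3, without a filter or replicate block, and p-values were Benjamini-Hochberg adjusted over these genes, which the authors had selected on the same libraries. SE values were derived from the log2 fold change and its F statistic. Alternatives were TMM and DESeq2 size factors, DESeq2 1.42.0, limma 3.58.1 with 1 or 0.1 added to FPKM, a minimum mean count of 10, a replicate block, omission of each library and, for *OsRZFP34*, the ratio of mean FPKM. All within-group pairs of libraries showed differences beyond sampling noise. The fits were tested on simulated data. The gene and the lists were chosen with earlier results of these data known. Named were all genes of the ubiquitin and RING lists, the 5 most abundant in *Dap1* and those that fell in the heat and abscisic acid lists, the 5 most similar in pattern, the 5 largest rises in FPKM, and 2 neighbours in level on each side in each group. *SAPK9*, the other risers of the abscisic acid list and the neighbouring identifiers were added after their values were seen.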

Additional observations from a re-analysis of the deposited data

How the results depend on the processing

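The log2 fold change of *OsRZFP34* was 2.29 and kept its direction under every alternative run. It was 1.84 with TMM factors and 1.44 with DESeq2 size factors, which shifted the median of all listed genes by -0.45 and -0.85. Both kinds of factor assume mostly unchanged genes but were taken over listed genes selected for a difference. These values therefore cannot decide the scale. On log2(FPKM + 1), fitted with limma, it was 2.26, and leaving out single libraries gave 2.28 to 2.30. That limma fit, which understates changes at low levels, called 4 genes of the ubiquitin list higher and 2 lower, 2 and 0 of the RING list, and 3 of the abscisic acid list lower. Over all listed genes it called 29.8% higher and 12.8% lower, near the shares in the ubiquitin list. In the RING list 2 genes were called higher with TMM factors and 1 with DESeq2 size factors, 1 was called lower with limma on log2(FPKM + 0.1), and 1 to 2 were called lower without single libraries (1 without WT replicate 1). In the abscisic acid list 4 and 2 genes were called higher with these scalings. Of the 5 genes of most similar pattern, 1 remained with log2(FPKM + 1), and 2 to 5 remained without single libraries. Over all listed genes, TMM factors gave 342 higher and 393 lower and DESeq2 size factors 251 and 393, against 526 and 386. Of the values of 52 other named genes under the alternatives, 613 stayed called or uncalled as before, 53 were no longer called, 6 became called and none changed sign. *RAB21*, *EFA27*, *OsGL1-2*, *Os03g0626500*, *BZIP12* and the neighbouring identifiers on chromosome 1 were not in this tally.

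The replicate numbers do not pair the libraries: same-numbered libraries had correlations of -0.00666, -0.016 and -0.0285 in their deviations from the group means, and not every library correlated best with its own number. With the replicate block the log2 fold change of *OsRZFP34* was 2.29, and 525 genes were called higher and 387 lower.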
